A study of Mus musculus with 6 samples.

Results

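The S100 genes encode small EF-hand proteins that change shape when they bind calcium, and the genes examined here were S100a1, S100a4, S100a6, S100a8, S100a9, S100a10, S100a11 and S100a13. A gene counted as measured where a probe set carried its symbol and no other. This held for 7 of the 8 genes, on 9 probe sets. All 9 passed the filter on dim probe sets, among 13575 of 22626 that did. The 7 genes were part of the 8190 genes tested. The only probe set that lists S100a11 carries 3 gene symbols, so no value is given for that gene. RNA came from CD4+CD25+ regulatory T cells (Treg), isolated by magnetic separation, of Balb/c mice. One group of 3 arrays was from wild-type mice (WT) and the other group of 3 from mice with the genotype MBD2-/-, which lack the methyl-CpG-binding protein Mbd2. The design calls the samples independent. The age and sex of the mice, any pooling, and the part of Mbd2 that was deleted are not stated in the labels. Values are in log2 expression units, 1 value for each probe set and array.

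S100 proteins act inside cells, where they bind annexins, cytoskeletal proteins and enzymes, and some also act outside. S100a8 and S100a9 form calprotectin, an abundant cytosolic protein of neutrophils, which binds zinc and manganese and signals through the receptors Tlr4 and Ager once released. S100a4, S100a6, S100a10 and S100a11 are expressed in many cell types, and S100a4 and S100a6 are well known from activated and memory T cells.

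Promoter sequences of 7 of the 8 genes, all but S100a10, were matched by symbol in RefSeq's table (build GRCm38.p6), and the 250 bases before each transcript start were taken as a window. The 8 genes lie on mouse chromosome 3. S100a8 and S100a9 are direct neighbours among protein-coding genes, as are S100a1 and S100a13, and S100a11 and S100a10. The number of CG pairs, the letters that a methyl-CpG-binding protein reads when they are methylated, differed among the windows: S100a8, S100a9 and S100a4 held 2 each, S100a6 held 3, S100a1 held 8, S100a11 held 11 and S100a13 held 13. Over 32851 windows the median was 6, and 29% held 2 or fewer. The windows of both calprotectin genes, of S100a4 as another gene poor in CG, and of S100a13 as the richest are shown 5′ to 3′ on the strand of the gene, with every CG in capitals. They are S100a8 at chr3:90668821-90669070 (plus strand), S100a9 at chr3:90695722-90695971 (minus strand), S100a4 at chr3:90603520-90603769 (plus strand) and S100a13 at chr3:90514185-90514434 (plus strand).
S100a8: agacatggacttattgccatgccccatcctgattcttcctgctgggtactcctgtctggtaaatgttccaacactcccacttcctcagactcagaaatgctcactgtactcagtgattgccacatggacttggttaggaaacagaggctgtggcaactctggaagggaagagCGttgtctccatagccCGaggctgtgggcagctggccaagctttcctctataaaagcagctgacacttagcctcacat
S100a9: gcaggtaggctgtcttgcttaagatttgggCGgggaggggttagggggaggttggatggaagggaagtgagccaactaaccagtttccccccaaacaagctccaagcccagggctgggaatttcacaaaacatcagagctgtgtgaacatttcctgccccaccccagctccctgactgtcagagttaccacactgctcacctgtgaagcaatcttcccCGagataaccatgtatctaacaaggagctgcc
S100a4: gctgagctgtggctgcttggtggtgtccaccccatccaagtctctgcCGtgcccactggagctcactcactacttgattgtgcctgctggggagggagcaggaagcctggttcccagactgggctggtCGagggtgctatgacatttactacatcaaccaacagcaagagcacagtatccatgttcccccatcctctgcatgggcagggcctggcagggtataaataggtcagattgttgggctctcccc
S100a13: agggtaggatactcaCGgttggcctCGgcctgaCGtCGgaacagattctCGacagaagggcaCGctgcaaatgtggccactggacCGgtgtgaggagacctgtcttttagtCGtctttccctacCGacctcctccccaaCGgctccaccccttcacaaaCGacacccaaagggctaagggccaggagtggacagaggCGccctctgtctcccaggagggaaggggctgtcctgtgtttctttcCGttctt
Searched on both strands, the window of S100a8 held the PU.1 form GAGGAA at 2 places, both on the opposite strand, and that of S100a9 held none. The C/EBP form TTGCNNAA, with N any base, occurred once before S100a9 and not before S100a8. Among all windows, 23.3% held GAGGAA and 9.56% held TTGCNNAA. The matches in the windows shown do not overlap. No methylation or binding was measured on these arrays.

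One wild-type array stood apart. The correlation of wild-type replicate 3 with the other arrays, across probe sets, was 0.749 to 0.767, against 0.956 to 0.997 for all pairs without it. Its value was the lowest of the 6 arrays for 63.8% of tested probe sets and the highest for 22.1%. It was the lowest for 88.9% of the brightest 20% of all probe sets. The SD of its values across probe sets was 1.36, against 1.78 to 1.83 on the other arrays, so its values spanned a narrower range. Results are therefore given from all 6 arrays and from the 5 arrays without wild-type replicate 3. The median log2 difference of all tested probe sets, knockout minus wild type, was 0.15 with 6 arrays and -0.06 with 5. Of all tested probe sets, 63.2% were higher in knockout with 6 arrays and 39.3% with 5, and 4.08% and 21.6% had an unadjusted p under 0.05. Both probe sets of the targeted gene, Mbd2, were lower in each knockout array than in each wild-type array.

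Calprotectin stood far above wild type in every knockout array. In the order of the replicate numbers, S100a8 measured 7.05, 8.91 and 5.82 in wild type and 12.76, 13.25 and 12.72 in knockout. S100a9 measured 7.24, 8.78 and 5.60 in wild type and 13.00, 13.46 and 13.06 in knockout. The lowest knockout array lay above the highest wild-type array for both genes, and the knockout arrays lay close together while the wild-type arrays were spread over more than 3 log2 units for S100a8 and S100a9 alike. The share of all tested probe sets with every knockout array above every wild-type array was 10.4%.

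**Figure D1:**
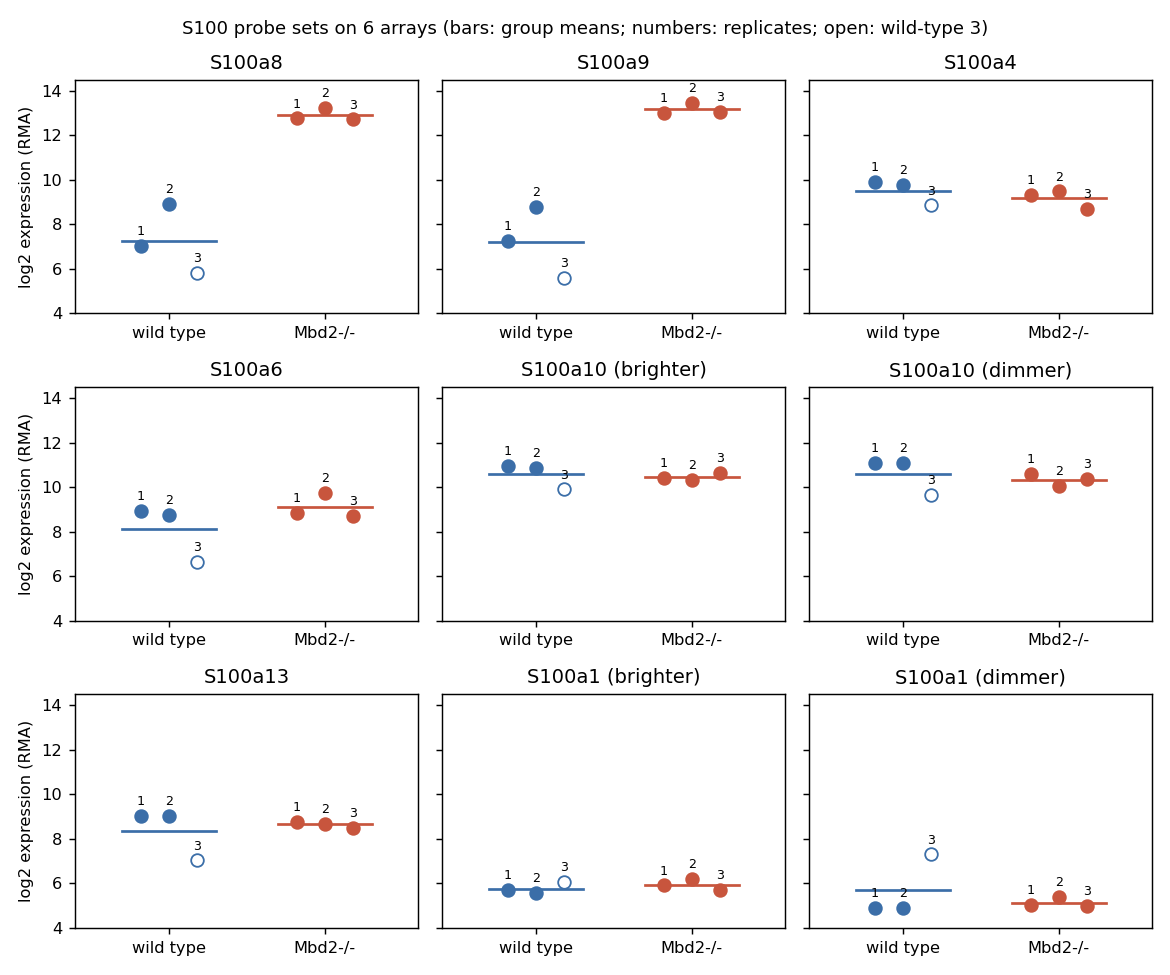
Log2 expression of the 9 S100 probe sets on each array, wild type in blue and Mbd2-/- in red; numbers give the replicate, bars the group means, and the open point wild-type replicate 3. S100a8 and S100a9 separate the groups, with knockout arrays from 12.72 to 13.46 and wild-type arrays from 5.60 to 8.91, while the other 7 probe sets overlap when all 6 arrays are used.

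With 6 arrays, the wild-type mean of S100a9 was 7.21 ± 1.59 and its knockout mean 13.17 ± 0.25 (SD, n = 3 each). Its log2 difference was 5.96 with an SE of 0.76, a 62.5-fold higher level, and this was the largest of all 13575 probe sets. S100a8 came next in size, at 7.26 ± 1.56 and 12.91 ± 0.30 (SD, n = 3 each) and a difference of 5.65 with an SE of 0.75 (50.2-fold). Neither passed the threshold of 0.05, with limma adjusted p of 0.104 for S100a9 and 0.118 for S100a8. In this fit 14 probe sets were called higher (0.103% of those tested) and 0 lower, and 554 had an unadjusted p under 0.05. By p, S100a9 ranked 21 and S100a8 23, so that probe sets with smaller differences and less spread in wild type came before them.

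Without wild-type replicate 3 both genes rose in knockout. The difference was 5.16 for S100a9 (SE 0.44, 35.8-fold, limma adjusted p = 0.0124) and 4.93 for S100a8 (SE 0.52, 30.5-fold, limma adjusted p = 0.0187). They were the only members among the 91 probe sets called higher, which are 0.670% of those tested. By limma, 0 of the other 7 S100 probe sets were called in either direction, and 0.729% of all tested probe sets were called lower. At an unadjusted p under 0.05 there were 0 of these 7 with 6 arrays and 4 with 5, where the share of all tested probe sets was 21.6%. Without wild-type replicate 2, the wild-type array with the highest calprotectin, S100a8 and S100a9 were also called, at 6.48 (adjusted p = 0.0222) and 6.75 (adjusted p = 0.0267). Without wild-type replicate 1 they were not, at 5.54 (adjusted p = 0.519) and 5.98 (adjusted p = 0.409). Without 1 knockout array the differences lay between 5.48 and 6.05 and were not called.

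**Figure D2:**
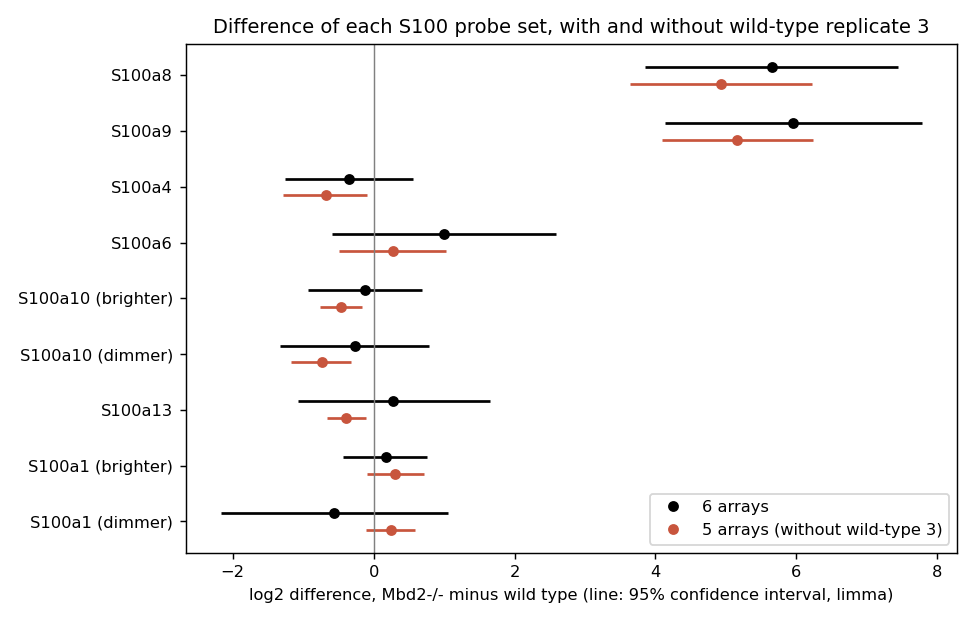
Log2 difference, knockout minus wild type, for each S100 probe set, with lines for the 95% confidence interval of the limma fit, in black for 6 arrays and in red for the 5 arrays without wild-type replicate 3. The intervals of S100a8 and S100a9 lie between 3.64 and 7.79, and with 6 arrays those of all other probe sets include 0.

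The remaining S100 genes differed far less. S100a4, which binds non-muscle myosin and is linked to cell motility, measured 9.92, 9.78 and 8.85 in wild type and 9.33, 9.48 and 8.69 in knockout. The groups overlapped only through wild-type replicate 3, and knockout replicate 3 was the lowest array. The log2 difference was -0.35 with a 95% interval from -1.26 to 0.56 (limma adjusted p = 0.829), and -0.68 with an interval from -1.28 to -0.09 in the 5-array fit (adjusted p = 0.19). Each interval is for the single probe set and is not adjusted for the number tested.

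S100a10, which lacks calcium binding and forms a complex with annexin A2, was measured by 2 probe sets. The one with the higher mean gave 10.97, 10.86 and 9.90 in wild type and 10.43, 10.31 and 10.63 in knockout. The other gave 11.10, 11.07 and 9.66 in wild type and 10.60, 10.04 and 10.38 in knockout. On both probe sets, wild-type replicates 1 and 2 lay above every knockout array and wild-type replicate 3 lay below every one. The log2 differences were -0.12 (interval from -0.93 to 0.68) and -0.27 (interval from -1.33 to 0.78) with 6 arrays. With 5 arrays they were -0.46 (limma adjusted p = 0.123) and -0.74 (limma adjusted p = 0.0956).

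S100a13, which takes part in the release of Fgf1 and Il1a, measured 9.04, 9.04 and 7.03 in wild type and 8.77, 8.68 and 8.51 in knockout. It was lower in knockout than in wild-type replicates 1 and 2, and higher than in replicate 3. The sign of its difference therefore turned, from 0.28 with 6 arrays (interval from -1.08 to 1.65) to -0.39 with 5 (limma adjusted p = 0.137). With 5 arrays, the probe sets of S100a4, S100a10 and S100a13, 4 in all, had every knockout array below both wild-type arrays. This held for 31.8% of all tested probe sets.

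S100a6, also called calcyclin, measured 8.92, 8.75 and 6.63 in wild type and 8.86, 9.73 and 8.70 in knockout. Wild-type replicate 3 was low and knockout replicate 2 high, and the other 4 arrays lay between 8.70 and 8.92. Its log2 difference was 1.0 with 6 arrays (interval from -0.59 to 2.59, limma adjusted p = 0.829) and 0.27 with 5 (interval from -0.49 to 1.03). Without both of those arrays it was -0.05.

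S100a1, best known from heart and skeletal muscle, was measured by 2 dim probe sets. The one with the higher mean gave 5.69, 5.57 and 6.05 in wild type and 5.91, 6.21 and 5.70 in knockout, a difference of 0.17 (interval from -0.43 to 0.76). The other gave 4.88, 4.91 and 7.30 in wild type and 5.04, 5.38 and 4.98 in knockout. On that probe set, replicate 3 was the only wild-type array above the filter cutoff of 5.18. The difference was -0.56 with 6 arrays and 0.24 with 5, and neither was called. With 5 arrays, both S100a1 probe sets had every knockout array above both wild-type arrays, as did 15.6% of all tested probe sets. Wild-type replicate 3 held the highest value on the dimmer S100a1 probe set (7.30), and knockout replicate 2 on the brighter one (6.21). Over the tested probe sets wild-type replicate 3 was highest for 22.1%, and over those under the filter for 73.3%.

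To set calprotectin against S100 genes of T cells on each array, values were centred on each probe set's mean over the 6 arrays, since levels of different probe sets cannot be compared. The mean of S100a8 and S100a9 then lay at -2.99, -1.29 and -4.43 in wild type and at 2.74, 3.22 and 2.75 in knockout. The mean of S100a4, S100a6 and S100a10 lay at 0.45, 0.31 and -1.02 in wild type and at 0.05, 0.36 and -0.15 in knockout. The calprotectin mean moved between the groups on all arrays, whereas the other mean was lowest in wild-type replicate 3 and had overlapping groups. The first less the second averaged -2.82 ± 1.05 over wild-type arrays and 2.82 ± 0.11 over knockout arrays (SD, n = 3 each), a gap of 5.63. Without wild-type replicate 3 the gap was 5.34. These genes were chosen with earlier results known, so the gap is a description without a test.

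**Figure D3:**
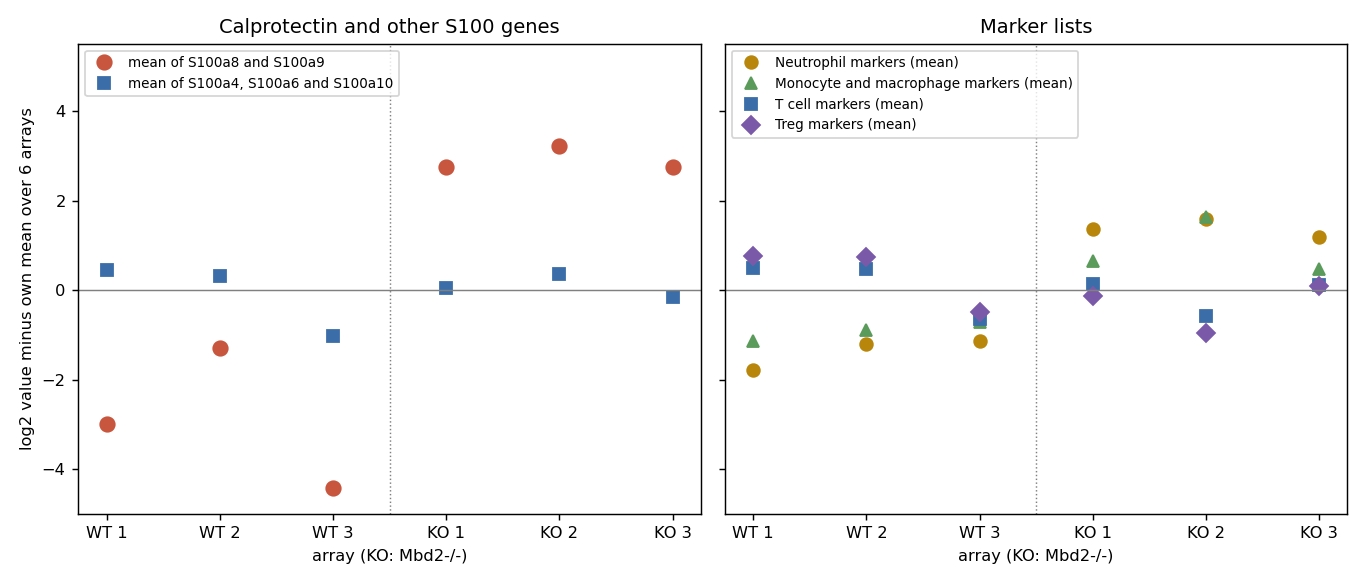
Left, the mean centred log2 value of S100a8 and S100a9 (red circles) and of S100a4, S100a6 and S100a10 (blue squares) on each array; right, the mean centred value of 4 marker lists. Calprotectin and the neutrophil markers lie below 0 in all 3 wild-type arrays and above 0 in all 3 knockout arrays, and the T cell means lie between -0.64 and 0.49.

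Markers of several other blood cells had higher values in the knockout arrays, and some of them were called. In the list of neutrophil markers, 13 of 13 tested genes were higher in knockout, with a median log2 difference of 2.37, and 5 were called (Camp, Ngp, Ltf, Lcn2 and Chil3). The mean log2 value of the list ranged from 5.13 to 5.78 in wild type and from 8.10 to 8.50 in knockout. The wild-type means of 2 of the 13, Mmp8 and Chil3, lay under the filter cutoff. With 5 arrays, 13 of 13 were again higher, with a median of 2.33, and Mmp8 and Mmp9 were called as well. Of the monocyte and macrophage markers, 8 of 9 were higher, with a median of 1.41 and a list mean from 5.43 to 5.86 in wild type and from 7.05 to 8.21 in knockout, and 1 was called (Lyz2). Of the eosinophil and mast cell markers 6 of 6 were higher, with a median of 2.17, and 1 was called (Prg2). The wild-type means of Epx in this list and of Cd14 among the monocyte markers also lay under the filter cutoff. Like Mmp8 and Chil3, they passed the filter through their higher knockout values. Over wild-type replicates 1 and 2 alone, the means of Prtn3 (4.86), Ctsg (5.11) and Cxcr2 (5.04) were under the cutoff of 5.18 as well. So were those of Adgre1 (5.14), Cd68 (5.05), Ms4a7 (5.08), C1qa (4.78) and Prg3 (5.09), and that of Prg2 lay at it (5.18). Of the B cell markers 5 of 5 were higher, with a median of 1.87, and limma called 0 (4 at an unadjusted p under 0.05). With 5 arrays, 7 of 13 neutrophil, 2 of 9 monocyte and macrophage, 5 of 6 eosinophil and mast cell and 1 of 5 B cell markers were called higher. Over all tested probe sets, 0.103% were called higher with 6 arrays and 0.670% with 5, and 63.2% and 39.3% were higher at all. The only erythroid marker tested by a probe set of 1 gene symbol was Hba-a1. It was at -0.82 with 6 arrays and 0.10 with 5 and was not called. Its values lay under the filter cutoff of 5.18 on every array but wild-type replicate 3, where it measured 7.45. Whether erythroid RNA differed between the groups was therefore not tested. Among the wild-type arrays the order was not that of calprotectin: the centred mean of the neutrophil markers was highest in replicate 3, at -1.13, where calprotectin was lowest, at -4.43. The wild-type means of the neutrophil list lay near the filter cutoff. Wild-type replicate 3 held the highest value for 73.3% of probe sets under the filter, against 22.1% of tested ones. It held the lowest for 88.9% of the brightest 20% of all probe sets. Whether this property of the array set the order was not tested. The part of the listed blood cells in the calprotectin difference was not tested either. In RNA from a mixed sample, more cells of a type and more RNA per cell cannot be told apart.

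Markers of the labelled cell type were present in both groups. The mean log2 value of 7 T cell markers, such as Cd3d and Cd3e, ranged from 9.31 to 10.45 in wild type and from 9.38 to 10.09 in knockout. That of 8 Treg markers, such as Foxp3, Il2ra and Ctla4, ranged from 8.12 to 9.38 in wild type and from 7.67 to 8.72 in knockout. Of these, 6 of 7 and 8 of 8 were lower in knockout with 6 arrays, with medians of -0.24 and -0.64, and limma called 0 (0 and 1 at an unadjusted p under 0.05). With 5 arrays the medians were -0.53 and -1.07, and 3 of 7 and 7 of 8 had an unadjusted p under 0.05. Over all tested probe sets the share at that p was 4.08% with 6 arrays and 21.6% with 5, and the share higher in knockout was 63.2% and 39.3%. Of the Treg markers Nrp1, a surface receptor, fell by 1.39 with 5 arrays (limma adjusted p = 0.0349).

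The genes whose values followed calprotectin most closely depended on wild-type replicate 3. Over 5 arrays, the 3 genes with the highest correlation with S100a9 were the neutrophil granule genes Ngp, Ltf (r = 0.999) and Camp (r = 0.999), and the first and the third of them rose by log2 differences of 5.23 and 5.10. These genes were also among the 5 most like S100a8. Over all 6 arrays the nearest gene to both was Cd24a, a surface glycoprotein of granulocytes and B cells, with r = 0.993 for S100a9 and 0.991 for S100a8. In wild-type replicate 3, Ngp (7.40), Camp (5.82) and Ltf (6.02) lay between replicates 1 and 2, whereas S100a8 and S100a9 lay below both. S100a8 and S100a9 correlated with each other at 0.999 over 6 arrays. All these correlations run over the same few arrays in 2 groups. For the other members, the nearest genes were partly others in the 2 sets of arrays. The genes nearest to S100a6 were Ctsd, Dpagt1, Slc30a7, Mgat2 and Uso1, and with 5 arrays only Slc30a7 stayed among its nearest 5. For S100a4 no gene was among the nearest 5 both times, Thap2 being the nearest over 6 arrays (r = 0.982) and Cnep1r1 over 5 (r = 0.997). S100a10 kept Tdrp and Trim23, S100a13 kept Msantd4 and Vps26b, and S100a1 kept Runx3.

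Of 7 further genes of the list with a probe set, S100a3, S100a5, S100a14, S100b and S100g were under the filter. S100a16 and S100pbp, which encodes a nuclear S100P-binding protein, passed it. S100a16 measured 6.38, 6.08 and 6.93 in wild type and 6.27, 6.30 and 6.29 in knockout. S100pbp measured 7.06, 7.18 and 5.05 in wild type and 6.85, 6.79 and 6.87 in knockout. Their differences of -0.18 and 0.41 were not called (limma adjusted p = 0.837 and 0.829). Both turned sign without wild-type replicate 3, to 0.05 and -0.28, and were not called there either (limma adjusted p = 0.812 and 0.175).

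Receptors and outside partners of S100 proteins did not pass the test. Of 13 listed genes 8 were tested, 7 of them higher and 1 lower, with a median of 0.32 with 6 arrays and 0.26 with 5, and 0 were called by limma in either fit (0 and 2 at an unadjusted p under 0.05). Over all tested probe sets, 63.2% were higher with 6 arrays and 39.3% with 5, and 4.08% and 21.6% had an unadjusted p under 0.05. The wild-type means of Ly96 and Cd14 lay under the filter cutoff, so these genes passed it through their knockout values. Cd14, the coreceptor of Tlr4 on monocytes, had the smallest p of the 8 tested genes. It measured 4.40, 4.59 and 5.81 in wild type and 5.65, 7.44 and 5.93 in knockout, a difference of 1.41 (limma adjusted p = 0.829). Without wild-type replicate 3 it was 1.84. Bsg, or basigin, was at 0.52 with 6 arrays and 0.30 with 5, Emb, or embigin, at 0.78 and 0.21, and the chemokine receptor gene Cxcr2 at 0.32 and 0.51. The lower gene with 6 arrays was Ager, the receptor for advanced glycation end products, at -0.32, with its highest value of 7.07 in wild-type replicate 3. It was at 0.11 with 5 arrays, where the lower gene was the integrin gene Itgb2 at -0.25. Tlr4 was under the filter.

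Among intracellular partners of S100 proteins, annexin A1 stood out. Of 20 listed genes 14 were tested. With 6 arrays, 13 were higher and 1 lower, with a median of 0.68, and limma called 0 (4 at an unadjusted p under 0.05). With 5 arrays, 9 were higher and 5 lower, with a median of 0.11, and 2 were called, both higher (5 at an unadjusted p under 0.05). Over all tested probe sets, 63.2% were higher with 6 arrays and 39.3% with 5. The shares called higher were 0.103% and 0.670%, and those at an unadjusted p under 0.05 were 4.08% and 21.6%. Anxa1, a phospholipid-binding protein that S100a11 binds, measured 6.78, 6.96 and 5.98 in wild type and 9.43, 10.40 and 9.58 in knockout. Every knockout array lay above every wild-type array, as held for 10.4% of all tested probe sets. The log2 difference of Anxa1 was 3.23 with 6 arrays (SE 0.39, limma adjusted p = 0.0849) and it rose by 2.93 with 5 (limma adjusted p = 0.0168). Cacybp, the calcyclin-binding protein, measured 9.09, 9.14 and 7.71 in wild type and 9.71, 9.75 and 9.68 in knockout. It rose by 0.60 with 5 arrays (limma adjusted p = 0.0452) and was at 1.07 with 6 (limma adjusted p = 0.829).

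Anxa2, the partner of S100a10, measured 7.64, 7.78 and 8.12 in wild type and 8.93, 9.61 and 8.74 in knockout. All knockout arrays lay above all wild-type arrays, as held for 10.4% of all tested probe sets, while neither S100a10 probe set was higher in knockout. The Anxa2 difference was 1.25 with 6 arrays and 1.38 with 5, and neither was called (limma adjusted p = 0.561 and 0.0633). Tgm2, a transglutaminase, was at 1.16 and 1.32 and was not called. Ahnak, a scaffold of the complex of S100a10 and annexin A2, was at 0.80 and 0.12, and Myh9, the myosin heavy chain bound by S100a4, at -0.02 and -0.33.

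**Figure D4:**
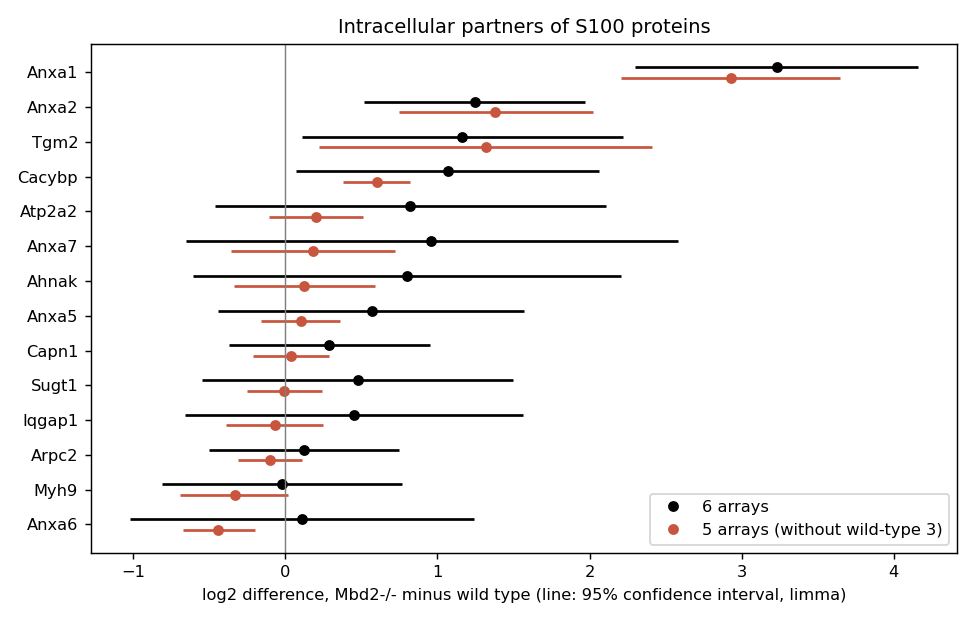
Log2 difference, knockout minus wild type, of 14 genes for intracellular partners of S100 proteins, with lines for the 95% confidence interval of the limma fit, in black for 6 arrays and in red for 5. Anxa1 lies farthest to the right, at 3.23 and 2.93, and most other genes move toward 0 without wild-type replicate 3.

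Other EF-hand calcium-binding genes had small differences. Of 20 listed genes 16 were tested, and 15 were higher with 6 arrays (median 0.41) and 3 with 5 arrays (median -0.17), where 13 were lower. Over all tested probe sets, the share higher in knockout went from 63.2% to 39.3% between these fits. Limma called 0 in either fit (0 and 3 at an unadjusted p under 0.05, against 4.08% and 21.6% of all tested probe sets). The 4 with the smallest p with 6 arrays were Mcfd2 at 0.70, Calu at 0.89, Efhd2 at 0.46 and Cib1 at 0.71. Without wild-type replicate 3 they were at 0.17, 0.12, 0.03 and -0.06. The mean of the list was 6.88 in wild-type replicate 3 and between 8.38 and 8.56 on the other arrays.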

How the data were processed

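Column-purified total RNA was amplified with a biotin label, per the labels' protocols. The deposited values are log2 expression values, made by the authors with RMA, per the submitters' processing notes. RMA corrects background, normalizes by quantiles and summarises probes. The arrays normalized together are not named in the sources used here. The number of arrays limits the precision.

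Control probe sets (64) and the 40% of the rest with the lowest mean (log2 under 5.18) were left out. The platform's annotation gave gene symbols, which RefSeq updated by gene ID. The difference between the groups was estimated by limma 3.58.1 (R 4.3.3; lmFit and eBayes) over 13575 probe sets in a model with the group alone. P-values were adjusted over all of these by Benjamini and Hochberg's method, with 0.05 as threshold. A gene with several probe sets is represented by the one with the highest mean.

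Members, gene lists, tests and alternatives were chosen with earlier results of these data known. All member probe sets are named. From the lists of other S100 genes, receptors, partners and EF-hand genes, the 4 tested genes with the smallest p and all called genes are named, with further members picked by function. Likeness is Pearson's r with each member, 5 genes each. The planned contrast of calprotectin included S100a11 and was made without it. The fit was tested on simulated data. Alternatives were other filters, a trended robust variance, array weights, quantile normalization again, median centring, a replicate block, arrays left out and the mean of probe sets. Figures were drawn with matplotlib 3.10.9.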

Additional observations from a re-analysis of the deposited data

How the results depend on the processing

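The number of called probe sets was 14 with 6 arrays. It was 8 without the filter, 2323 with array quality weights and 561 with the replicate block after leaving out wild-type replicate 3. It was 2537 without wild-type replicate 3 and knockout replicate 2, and ranged from 0 to 190 when 1 array was left out. S100a8 and S100a9 stayed higher under every alternative run. When 1 array was left out they ranged from 4.93 to 6.48 and from 5.16 to 6.75. They were also called with array quality weights (4.05 and 4.42), with the replicate block after leaving out wild-type replicate 3 (5.03 and 5.22), and without that array and knockout replicate 2 (4.76 and 5.02). Their adjusted p over all alternatives ran from 6.41e-06 to 0.595 and from 1.28e-06 to 0.549. The smallest of these came from the fit with array weights. Its weights were 0.448, 4.39 and 0.0289 for wild-type replicates 1 to 3, and 8.24, 0.585 and 3.65 for the knockout replicates. The wild-type side of that fit therefore rested mostly on replicate 2. The estimation of the weights stopped before converging.

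Without wild-type replicate 3 and knockout replicate 2, S100a4 (-0.84), S100a10 (-0.39) and S100a13 (-0.40) were called lower, and S100a6 turned to -0.05. Of the 13575 tested probe sets, that fit called 1401 lower and 1136 higher. When 1 array was left out, S100a4 ranged from -0.68 to -0.11 and S100a6 from 0.27 to 1.41. S100a10 was also called with array quality weights (-0.38), in a fit that called 1352 probe sets lower and 971 higher. S100a10 ranged from -0.46 to 0.07 when 1 array was left out, being 0.07 and 0.02 without wild-type replicates 1 and 2. S100a13 ranged from -0.39 to 0.62 there, and turned to -0.34 with array quality weights and to -0.31 with the replicate block after leaving out wild-type replicate 3. S100a1 was -0.20 as the mean of its probe sets. The median of all tested probe sets was 0.06 after quantile normalization again and 0.20 after median centring, and neither turned the sign of a member's brightest probe set. The gap between calprotectin and the other S100 genes kept between 5.32 and 6.24. Deviations of same-numbered samples from their group means correlated at 0.150, -0.092 and -0.141. The outlying wild-type replicate 3 shapes the deviations of all wild-type arrays, so this check could not decide whether samples are paired. The replicate numbers were not taken to pair the samples, which the design calls independent. With the replicate block and all 6 arrays, 10 probe sets were called and no S100 gene, with S100a8 at an adjusted p of 0.0703. The cause of these changes was not tested, other than that fits with fewer arrays hold fewer values.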

Other observations

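Calprotectin also varied between wild-type replicates 1 and 2. Only 11 of 13575 tested probe sets (0.0810%) differed by at least 1.5 log2 units between these replicates, and all 11 were higher in replicate 2. S100a8 was higher by 1.86 there and S100a9 by 1.54. The others with 1 gene symbol were Ngp, a neutrophil granule gene, at 1.61, and the immunoglobulin genes Ighm and Igk. The remaining 5 differed by 1.54 to 2.83, which includes the largest of the 11 differences. They carried no single symbol in the annotation, so their genes are not named here. These probe sets were singled out after their values were seen, and no test was made.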
